A study of Mus musculus with 12 samples.

Results

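The 10 genes described here encode the structural proteins of the elastic fibre: elastin (Eln), the fibrillins (Fbn1, Fbn2), the fibulins (Fbln1, Fbln2, Fbln5, Efemp1, Efemp2) and the microfibril-associated proteins Mfap4 and Mfap5. They were chosen by gene symbol, each symbol matched 1 identifier, and they made up 10 of the 56748 genes in the count table. All 10 passed the filter on low counts and were among the 16465 genes tested. Elastic fibres consist of a core of crosslinked elastin laid down on a scaffold of fibrillin microfibrils. Fibulins tether elastin and the lysyl oxidases to that scaffold, and the lysyl oxidases then join the elastin chains. The fibres give recoil to arteries, lung and skin, and mesenchymal cells such as fibroblasts and smooth muscle cells make them.

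RNA was sequenced from 10T1/2 cells, the mouse mesenchymal line C3H10T1/2 (spelled CH310T1/2 in the sample labels, which give the genotype as WT), in 3 groups of 4 libraries. Every group was starved of serum, held in suspension for 1 h and then grown for 18 h on a gel of 12 kPa stiffness that carried 0.05 mg/ml of type I collagen. The labels place 0.5% serum in the suspension step, while the methods of the study give that step without serum and 0.5% serum for the starvation before it and for the gel. The col1 group had collagen alone. The col1-ACLP group had collagen polymerized with 30 nM recombinant ACLP, a secreted collagen-binding protein of the extracellular matrix. The col1-ACLP+SB group had the same ACLP-containing collagen and also SB431542, an inhibitor of the TGF-beta type I receptor kinase ALK5. No library came from cells given SB431542 on collagen alone, so an action of the inhibitor that needs no ACLP cannot be told apart from one on the response to ACLP. The design asks whether ACLP within collagen changes expression of these genes, and whether it does so when ALK5 is inhibited.

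Counts per library ran from 29246154 to 52201922. All 8 mesenchymal markers checked were expressed. Their summed level in CPM (counts scaled to a common library size) was 25110 to 26030 in col1 libraries. It was 34950 to 43180 in col1-ACLP libraries and 31860 to 37380 in col1-ACLP+SB libraries. Most of that sum was Col1a1 (11720 to 24430 CPM over all libraries) and Col1a2 (7190 to 12750 CPM), so it does not show the markers rising together. Vim ran from 4708 to 5373 CPM, and Pdgfra, which the study names as suppressed by ACLP, from 230 to 454 CPM. Markers of other cell types were low in every group, with sums over 5 genes each of 4.30 to 9.85 CPM for endothelium (Tek 3.95 to 9.56), 5.31 to 10.7 CPM for immune cells (Cd68 5.31 to 10.0), 2.45 to 5.04 CPM for epithelium (Cdh1 1.88 to 3.84) and 0.342 to 2.27 CPM for adipocytes. The immune sum was lower on col1-ACLP (5.31 to 8.85 CPM) than on col1 (9.13 to 10.5 CPM), without overlap, and the adipocyte sum lower on col1-ACLP+SB (0.342 to 0.694 CPM) than on col1 (0.794 to 2.27 CPM). The endothelial sum was higher on col1-ACLP (7.51 to 9.85 CPM) than on col1-ACLP+SB (4.30 to 6.40 CPM). The part of these shifts in the results was not tested. Adgre1, Cd3e and Epcam had no counts, and Pecam1, Cdh5 and Ptprc at most 0.309 CPM. The sum of 5 smooth muscle markers ran from 534 to 603 CPM without ACLP, from 1112 to 1357 CPM with it and from 970 to 1071 CPM with ACLP and the inhibitor, most of it Acta2, with Myh11 at most 2.48 CPM. Its part in the results below was not tested. In bulk RNA, more cells of a type and more RNA per cell cannot be told apart. Among the libraries, col1 replicate 2 stood apart on the first principal component (-86.7, where the rest of its group had -11.1 to -8.97). Counts of members called are therefore also given without it.

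Promoter sequences are shown for the 3 members that changed and have an entry in the RefSeq promoter table of GRCm38.p6, since Fbn1 and Fbln5 were higher together while Efemp1 was lower. Promoter windows were read for 6 of the 10 members, and Eln, Fbn2, Mfap4 and Mfap5 were not among them. Each sequence is the 250 bases before the RefSeq start of the gene, read 5′ to 3′ on the gene's strand, and for Fbln5 it is the first start listed. It lies at chr2:125506439-125506688 (minus strand) for Fbn1, at chr12:101819120-101819369 (minus strand) for Fbln5 and at chr11:28852955-28853204 (plus strand) for Efemp1. Capitals mark matches to 5 searched motifs on either strand: CAGAC (SMAD binding), TGANTCA (a loose form of the AP-1 site, with any base at its centre), GGAATG (TEAD), GGGCGG (the GC box of Sp1, CCGCCC when read on the other strand) and the CArG box of SRF.
Fbn1: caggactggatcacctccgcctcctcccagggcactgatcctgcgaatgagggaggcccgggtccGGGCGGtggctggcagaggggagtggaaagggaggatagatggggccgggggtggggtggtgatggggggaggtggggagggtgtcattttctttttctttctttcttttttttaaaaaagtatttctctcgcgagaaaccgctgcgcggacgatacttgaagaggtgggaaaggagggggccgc
Fbln5: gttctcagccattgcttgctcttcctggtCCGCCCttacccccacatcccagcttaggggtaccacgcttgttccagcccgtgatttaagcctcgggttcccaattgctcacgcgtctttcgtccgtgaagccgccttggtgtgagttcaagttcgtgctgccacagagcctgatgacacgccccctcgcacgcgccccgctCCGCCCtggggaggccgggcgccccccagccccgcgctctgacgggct
Efemp1: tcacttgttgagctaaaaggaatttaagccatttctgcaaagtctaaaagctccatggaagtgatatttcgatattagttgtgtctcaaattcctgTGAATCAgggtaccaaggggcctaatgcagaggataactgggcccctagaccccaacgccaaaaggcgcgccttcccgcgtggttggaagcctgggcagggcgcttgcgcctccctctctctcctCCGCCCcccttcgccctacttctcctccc

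The Fbn1 window held 1 match, a GC box from 185 to 180 bases before the start. The Fbln5 window held a pair of GC boxes on the other strand, from 221 to 216 and from 48 to 43 bases before the start. The Efemp1 window held a TGANTCA match (TGAATCA, with A at the centre) from 154 to 148 bases before the start. It also held a GC box on the other strand from 29 to 24. Of all 32851 promoter windows of this length, 32.7% held GGGCGG, 6.75% TGANTCA, 42.2% CAGAC, 12.6% GGAATG and 1.47% a CArG box. None of the 3 windows printed held CAGAC, a CArG box or GGAATG, which says only that the letters are not in these bases. At the second start listed for Fbln5, the window held 2 CAGAC matches, from 199 to 195 and from 15 to 11 bases before that start, and no match to the other 4 motifs. Members that were not called held some of the same motifs. The Fbln2 window had 1 GC box, the first of Efemp2 had 2 GC boxes and 2 CAGAC matches, and the first of Fbln1 had 2 CAGAC matches. The GC content was 59.2% for Fbn1, 65.2% for Fbln5 and 53.6% for Efemp1, beside a median of 52.4% over all windows.

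Per length of gene, in FPKM (the same scaled counts divided by gene length), 4 members made up most of the expression of the family on col1. Fbln2, a fibulin of basement membranes and developing vessels that binds fibrillin and elastin, was the most abundant at 285 ± 18.5 FPKM (SD, n = 4). Fbln5, which tethers tropoelastin to microfibrils and integrins, followed at 92.3 ± 1.03 FPKM and Fbn1, the main fibrillin of adult microfibrils, at 75.6 ± 2.91 FPKM. Efemp2 (fibulin-4), which brings lysyl oxidase to elastin, had 29.04 ± 1.56 FPKM. The remaining 6 lay at or under 3.03 FPKM in each col1 library, in the order Mfap5, Fbn2, Eln, Efemp1, Mfap4 and Fbln1. Neighbours in the order on col1 did not overlap between libraries, except for Eln at 0.722 ± 0.157 FPKM and Efemp1 at 0.693 ± 0.131 FPKM. Order and overlaps hold for the gene lengths of the deposited table, and other lengths could change them for close neighbours. For Eln that length is 8098 bases, against 3998 in the canonical transcript. Elastin, the core protein, was thus a low-level transcript here, with 4.25 to 7.27 CPM on col1.

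On col1-ACLP and col1-ACLP+SB the first 7 places in the order were the same, although Eln overlapped there with both its neighbours, Fbn2 and Mfap4. Mfap4 stood above Efemp1 in both, and Efemp1 overlapped with Fbln1 at the foot of the order. The 10 genes together took 0.358% ± 0.0145 of the counts of a col1 library, 0.447% ± 0.0211 with ACLP and 0.417% ± 0.00921 with ACLP and SB431542 (SD, n = 4).

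**Figure D1:**
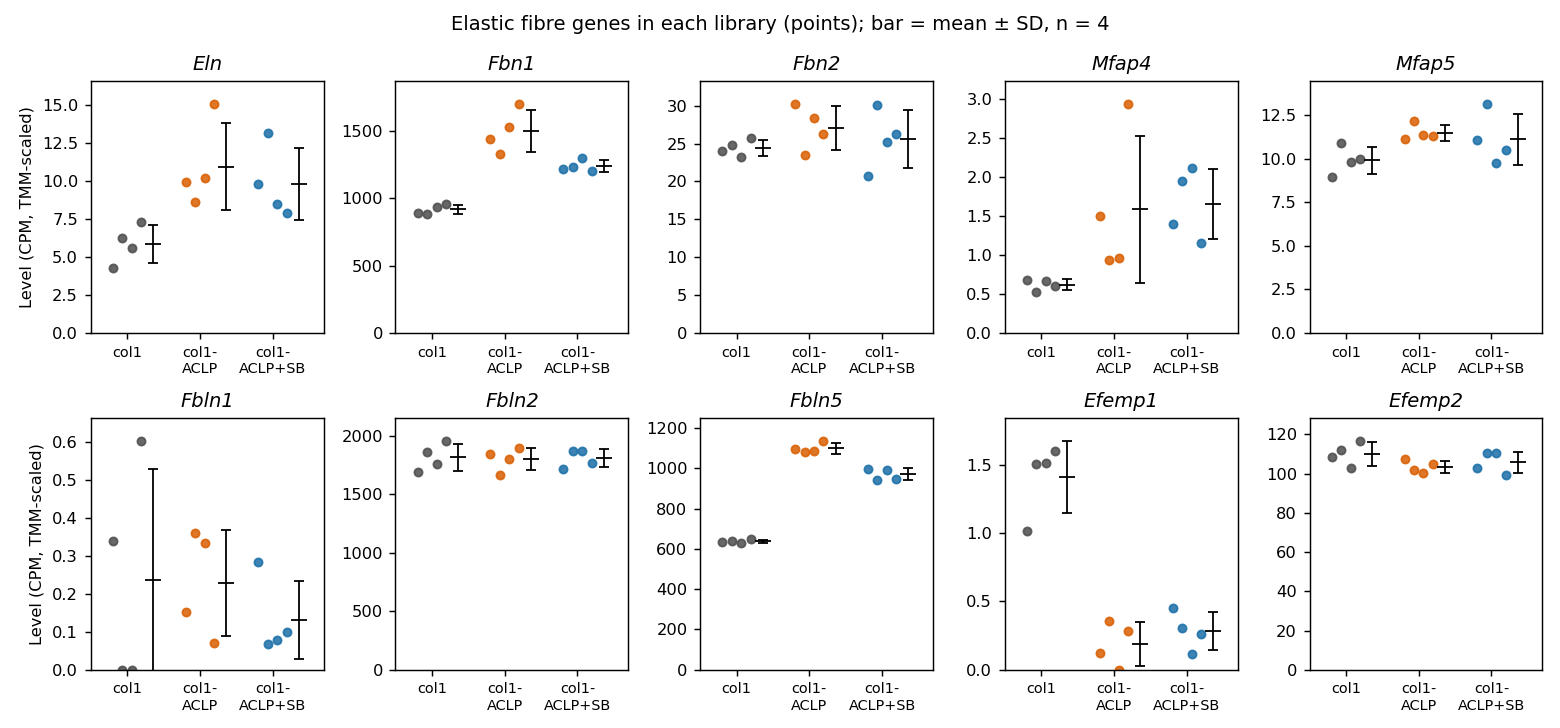
Level of each elastic fibre gene in CPM (y axis, from 0, a scale of its own for each gene) in the 4 libraries of col1, col1-ACLP and col1-ACLP+SB (points), with the mean and SD beside them. For Eln, Fbn1, Fbln5 and Mfap4 every col1 point lies under every col1-ACLP point, and for Efemp1 every col1 point lies above. Where the SD exceeds the mean (Fbln1 on col1) the bar ends at the axis.

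Between col1-ACLP and col1, 5 of the 10 members were called, meaning an adjusted p under 0.05 (edgeR, quasi-likelihood, adjusted by Benjamini-Hochberg over all genes tested) and a log2 fold change beyond 0.58 in size. Eln, Fbn1, Fbln5 and Mfap4 rose and Efemp1 fell, while Fbn2, Fbln1, Fbln2, Efemp2 and Mfap5 were not called. Over all genes tested, 4.97% were called, 2.61% higher and 2.36% lower. The members were chosen with earlier results of these data known, so their counts beside such shares do not test the family. Efemp1 passed the filter on low counts only through its col1 libraries, so a gene with its pattern could enter the test only if it differed. The median log2 fold change was 0.18 over the members and -0.01 over all genes tested. The 5 called genes were called without col1 replicate 2 as well.

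Eln, the elastin core, had 4.25, 6.27, 5.58 and 7.27 CPM in the col1 libraries and 9.89, 8.62, 10.2 and 15.1 CPM in the col1-ACLP libraries. The groups did not overlap, and col1-ACLP replicate 4 was the highest of both groups. The means were 5.84 ± 1.27 and 10.9 ± 2.83 CPM (SD, n = 4), with a log2 fold change of 0.90 ± 0.19 (SE) and an adjusted p of 0.0011. Eln lies on chromosome 5 from 134731447 to 134776177 (GRCm39, minus strand), and 5.12% of its exonic bases are shared with Gm30003 on the opposite strand. Shared bases are given here from the GENCODE annotation of GRCm39, whose gene models differ in part from those behind the counts, and positions are those of the deposited table.

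Fbln5 showed the smallest spread of the called genes. Its libraries held 636, 639, 630 and 647 CPM on col1 and 1096, 1079, 1084 and 1137 CPM on col1-ACLP. The groups lay far apart beside the differences within them, with a coefficient of variation of 1.11% on col1 and 2.43% on col1-ACLP. Fbln5 rose 1.72-fold, a log2 fold change of 0.78 ± 0.0377 (SE, adjusted p = 5.69e-14). Its exons (chromosome 12, 101712824 to 101785314, GRCm39, minus strand) are shared with no other gene in the GENCODE models.

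The microfibril scaffold was split. Fbn1 had 891, 885, 932 and 960 CPM on col1 and 1441, 1324, 1526 and 1698 CPM on col1-ACLP, with no overlap. Its mean was 917 ± 35.3 CPM in the first group and 1497 ± 157 CPM in the second (SD, n = 4). It rose 1.63-fold, with a log2 fold change of 0.71 ± 0.0538 (SE, adjusted p = 2.21e-10). Fbn1 lies on chromosome 2 from 125142514 to 125349913 (GRCm39, minus strand), and 20.1% of its exonic bases in those models are shared with Gm9913 on the opposite strand. How reads on shared bases were counted is not given in the sources used here.

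Fbn2, the fibrillin that prevails in fetal microfibrils, had 23.2 to 25.7 CPM on col1 and 23.5 to 30.2 CPM on col1-ACLP, and its groups overlapped. The log2 fold change of Fbn2 was 0.15, with a 95% interval from -0.06 to 0.36 and an adjusted p of 0.368. Per length, the ratio of Fbn1 to Fbn2 was 41.0 ± 2.03 on col1 and 60.5 ± 7.61 on col1-ACLP (SD, n = 4), with library ranges of 38.9 to 43.8 and 51.97 to 70.3 that did not overlap.

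Mfap4, a fibrinogen-related protein that binds fibrillin, elastin and collagen, was at the low end of detection. It had 26, 20, 22 and 26 counts on col1 and 49, 34, 29 and 83 counts on col1-ACLP, which scaled to 0.678, 0.529, 0.667 and 0.604 CPM and to 1.496, 0.939, 0.968 and 2.94 CPM. The groups did not overlap, and col1-ACLP replicate 4 was well above the other 3 of its group. The log2 fold change was 1.35 ± 0.423 (SE, adjusted p = 0.0269). Without col1-ACLP replicate 4 it was 0.87 (adjusted p = 0.211), and without col1 replicate 4 it was 1.34 (adjusted p = 0.0524), so the call for Mfap4 was lost when either library was left out.

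Mfap5 (MAGP-2), a small glycoprotein of microfibrils, had 8.95 to 10.9 CPM on col1 and 11.1 to 12.2 CPM on col1-ACLP. Its groups did not overlap, but its log2 fold change of 0.21 had a 95% interval from -0.04 to 0.47 and did not pass the test (adjusted p = 0.273). In all, 6 members had no overlap between col1-ACLP and col1, 5 of them higher and 1 lower, beside 21.2% of all genes tested (10.9% higher and 10.3% lower). The lower one was Efemp1, which was tested only because of its level on col1.

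Efemp1 (fibulin-3), a fibulin of fascia and retina that binds elastin weakly, was the member that fell. It had 39, 57, 50 and 69 counts on col1 against 4, 13, 0 and 8 counts on col1-ACLP. In CPM the col1 libraries held 1.02, 1.51, 1.52 and 1.60, and the highest col1-ACLP library held 0.359. The 0 in col1-ACLP replicate 3 is a limit of depth, since 3 counts came to at most 0.106 CPM in the libraries of that group. On the log2 scale the change was -2.85 ± 0.693 (SE, adjusted p = 0.00405), or 7.20-fold lower. Efemp1 (chromosome 11, 28803204 to 28876743, GRCm39, plus strand) shares no exonic bases with another gene in the GENCODE models, which give it 4529 exonic bases where the deposited length is 2037.

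The other fibulins did not pass the test. Fbln2 had 1692, 1861, 1756 and 1960 CPM on col1 and 1845, 1670, 1805 and 1895 CPM on col1-ACLP, and the groups lay on top of each other. Its log2 fold change was -0.01, with a 95% interval from -0.11 to 0.09 (adjusted p = 0.925). Efemp2 averaged 110 and 104 CPM in col1 and col1-ACLP libraries, and its log2 fold change was -0.09 with an interval from -0.20 to 0.03 (adjusted p = 0.317). Fbln1, a fibulin of basement membranes and elastin cores, had 0 to 26 counts on col1 and 2 to 13 on col1-ACLP, and with an interval from -2.13 to 2.02 no difference was detectable at this depth.

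**Figure D2:**
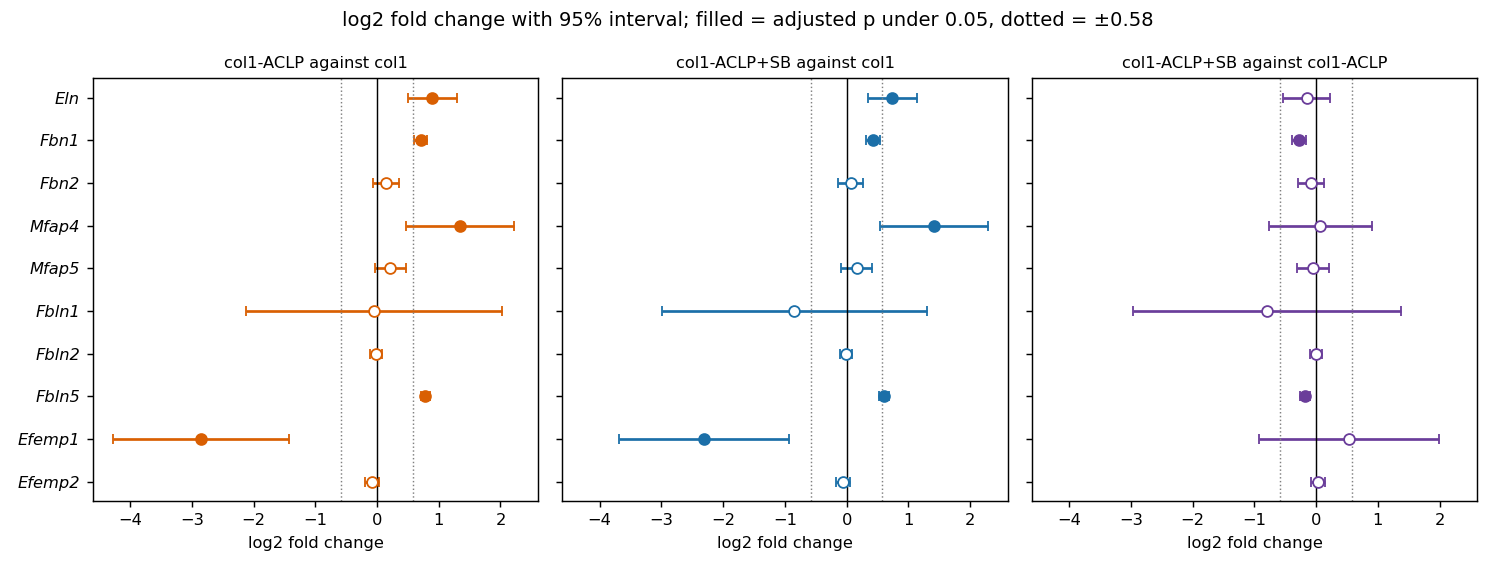
log2 fold change (x axis) of the 10 genes in the 3 comparisons, with 95% intervals from edgeR, filled where the adjusted p was under 0.05, and dotted lines at 0.58 in each direction. Against col1, Eln, Fbn1, Fbln5 and Mfap4 lie to the right of 0 and Efemp1 to the left, while between col1-ACLP+SB and col1-ACLP the filled points are Fbn1 and Fbln5.

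With Fbn1 and Fbln5 higher and Fbln2 close to its col1 level, the make-up of the family differed between groups. By FPKM, Fbln2 made up 58.3% ± 1.11 of the summed level of the 10 genes on col1 and 47.2% ± 0.660 on col1-ACLP (SD, n = 4). Fbln5 went from 18.9% ± 0.711 to 26.5% ± 0.890 and Fbn1 from 15.5% ± 0.579 to 20.5% ± 1.15. Fbln2 exceeded Fbln5 by 3.09-fold per length on col1 and by 1.78-fold on col1-ACLP, with library ranges of 2.89 to 3.29 and 1.68 to 1.83. Fbln5 exceeded Efemp2, the other fibulin needed for elastin assembly, 3.18-fold on col1 and 5.82-fold on col1-ACLP. Fbn1 exceeded Eln by 108 ± 23.2 on col1 and by 93.8 ± 12.5 on col1-ACLP, ratios whose libraries overlapped. These shares and ratios use the gene lengths of the deposited table and are descriptive. That length is 8098 bases for Eln and 3788 for Efemp2, against 3998 and 2221 in the canonical transcript. By canonical length, the ratios of Fbn1 to Eln and of Fbln5 to Efemp2 would be lower in every group.

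**Figure D3:**
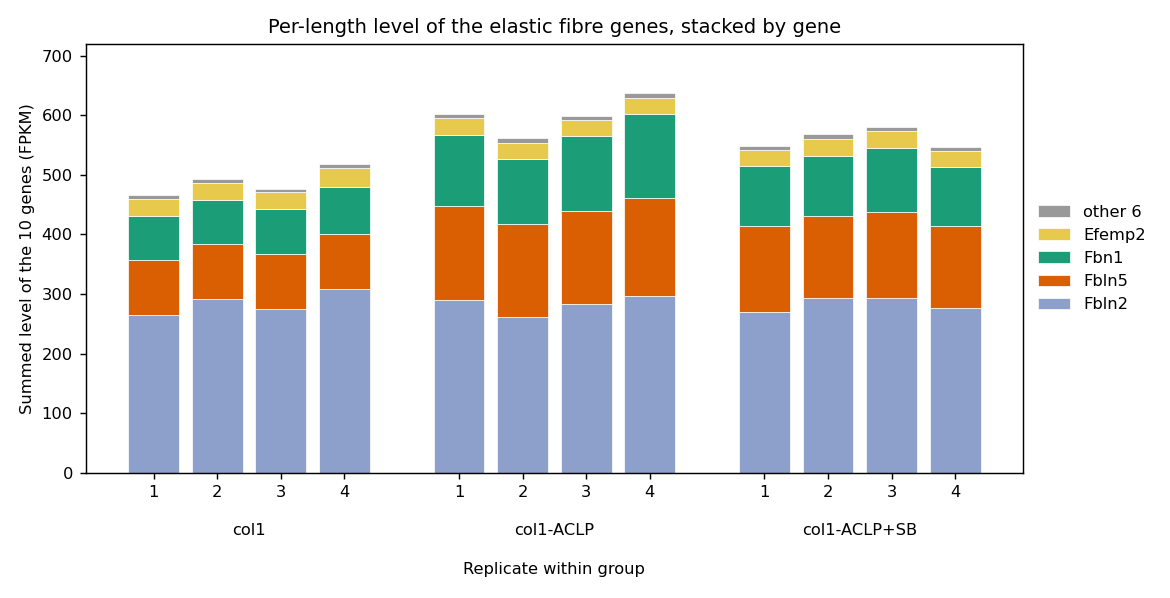
Summed level of the 10 elastic fibre genes in FPKM (y axis, from 0) in each of the 12 libraries, stacked by gene, with Eln, Fbn2, Fbln1, Efemp1, Mfap4 and Mfap5 summed as the other 6. The sum ran from 465.5 to 518.1 on col1 and from 561.3 to 638.3 on col1-ACLP, and the Fbln5 and Fbn1 segments are taller on col1-ACLP while that of Fbln2 is not.

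Between col1-ACLP+SB and col1, 4 of the 10 members were called. Eln, Fbln5 and Mfap4 rose and Efemp1 fell, beside 2.28% of all genes called in either direction, 1.27% higher and 1.01% lower. Efemp1 again needed its col1 libraries to pass the filter on low counts, so its fall here carries the same limit. Fbn1 was higher with an adjusted p under 0.05 but under the fold threshold, so that 5 members passed on the adjusted p alone, beside 9.13% of all genes. This comparison and the one before share the 4 col1 libraries. The median log2 fold change was 0.11 over the members and 0.005 over all genes tested. Without col1 replicate 2, Mfap4 was no longer called (log2 fold change 1.35, adjusted p = 0.059) and the other 3 were.

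Fbln5 had 998, 944, 993 and 948 CPM on col1-ACLP+SB, all above the col1 libraries. Against col1 it had a log2 fold change of 0.605 ± 0.0376 (SE, adjusted p = 1.54e-11), just past the fold threshold, and it ran from 0.581 to 0.619 over 20 alternative settings. Fbn1 had 1214, 1230, 1300 and 1201 CPM, again with no overlap with col1. Its log2 fold change was 0.43 ± 0.0537 (SE, adjusted p = 2.24e-06), from 0.41 to 0.45 over the alternatives and thus under the fold threshold in each.

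Eln had 9.76, 13.2, 8.45 and 7.90 CPM on col1-ACLP+SB, with the lowest of them above the highest col1 library. Against col1 the log2 fold change was 0.74 ± 0.19 (SE, adjusted p = 0.0111). That call was lost without col1 replicate 1 (log2 fold change 0.62, adjusted p = 0.0519) and without col1-ACLP+SB replicate 2 (0.57, adjusted p = 0.0639).

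Mfap4 had 49, 58, 110 and 35 counts on col1-ACLP+SB, or 1.39, 1.95, 2.12 and 1.16 CPM, each above every col1 library. Its log2 fold change was 1.42 ± 0.421 (SE, adjusted p = 0.0326). Leaving out any 1 of the 4 col1 libraries, or col1-ACLP+SB replicate 2 or 3, took the adjusted p to 0.0532, 0.059, 0.0568, 0.0686, 0.0715 and 0.105, in that order, with a log2 fold change from 1.27 to 1.46.

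Efemp1 had 16, 9, 6 and 8 counts on col1-ACLP+SB, and its highest level of 0.455 CPM was under the lowest col1 library. It was 4.98-fold lower than on col1, a log2 fold change of -2.32 ± 0.668 (SE, adjusted p = 0.0267). Without col1 replicate 3 or 4, or without col1-ACLP+SB replicate 2, 3 or 4, the adjusted p was 0.071, 0.0798, 0.0548, 0.0906 and 0.0696 in that order, while the log2 fold change stayed between -2.35 and -2.03. No overlap between col1-ACLP+SB and col1 was seen for 5 members, 4 higher and 1 lower, beside 13% of all genes tested (6.69% higher and 6.33% lower). The lower one was Efemp1, which was tested only because of its level on col1.

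**Figure D4:**
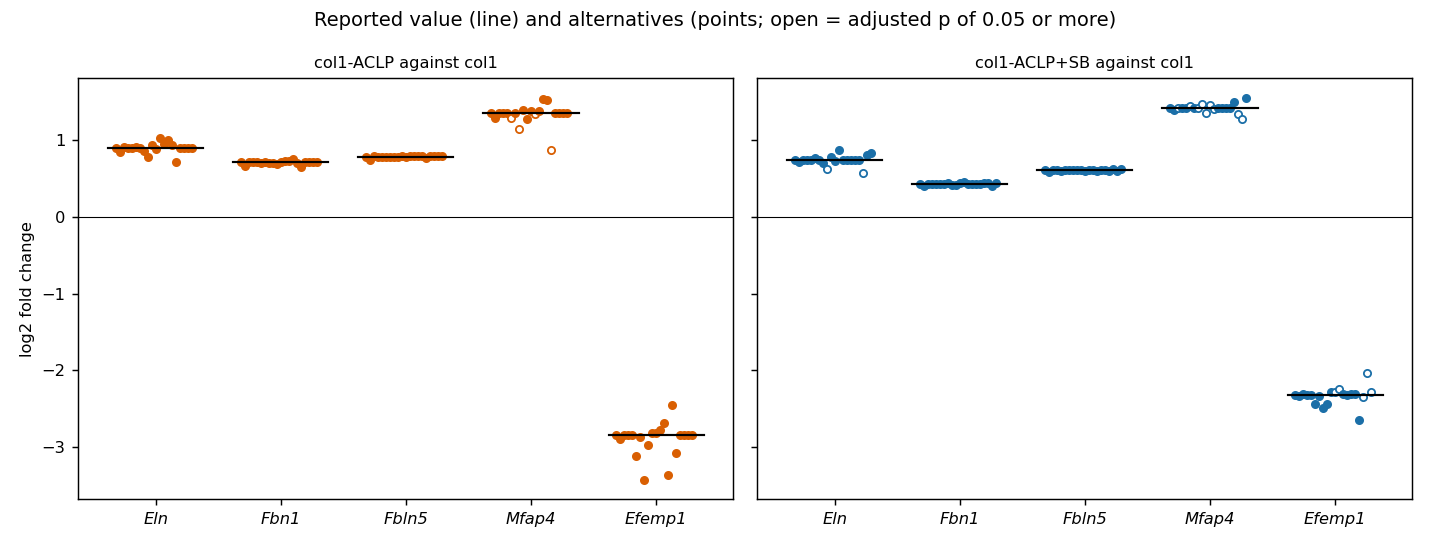
log2 fold change against col1 (y axis) of the 5 members that passed the adjusted p, as reported (line) and under each alternative setting or left-out library (points, open where the adjusted p was 0.05 or more). Open points are seen for Mfap4 in both comparisons and for Eln and Efemp1 with col1-ACLP+SB, and none crosses 0.

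The remaining 5 members overlapped between col1-ACLP+SB and col1 and did not pass the test. The log2 fold change was 0.06 (interval -0.14 to 0.27) for Fbn2, 0.16 (-0.09 to 0.415) for Mfap5, -0.01 (-0.10 to 0.09) for Fbln2, -0.06 (-0.17 to 0.055) for Efemp2 and -0.85 (-2.99 to 1.30) for Fbln1.

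The direct comparison of col1-ACLP+SB with col1-ACLP tests what the inhibitor changed in cells on ACLP. No member was called by edgeR, beside 0.128% of all genes tested, nor by DESeq2 or limma-voom under the same thresholds. At an unadjusted p under 0.05 there were 2, Fbn1 and Fbln5, beside 12.8% of all genes. Both also had an adjusted p under 0.05, beside 1.48% of all genes on that rule and 0.905% in the lower direction. Both were lower with SB431542, and for both the groups did not overlap, beside 8.17% of all genes (4.53% lower).

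Fbn1 averaged 1236 ± 44.1 CPM on col1-ACLP+SB and 1497 ± 157 CPM on col1-ACLP (SD, n = 4), a log2 fold change of -0.28 ± 0.0536 (SE, adjusted p = 0.00673). The highest library with the inhibitor, at 1300 CPM, was under the lowest without it, at 1324 CPM. Fbln5 averaged 970 ± 28.7 and 1099 ± 26.7 CPM, a log2 fold change of -0.18 ± 0.0374 (SE, adjusted p = 0.0116), and without col1-ACLP+SB replicate 4 its adjusted p was 0.0599. Both genes thus lay between their col1 and their col1-ACLP levels when the inhibitor was present.

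For the other called members the inhibitor made no difference that the test detected, with intervals of unequal width. Eln differed by -0.16 (95% interval -0.54 to 0.23, adjusted p = 0.822). Mfap4 differed by 0.07 (-0.77 to 0.91, adjusted p = 0.979) and Efemp1 by 0.53 (-0.93 to 1.99, adjusted p = 0.849), both intervals being wider than the fold threshold in each direction. Fbln2 was held most closely, at 0.003 with an interval from -0.09 to 0.10 on the log2 scale.

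Beyond the 10 genes, a list of 64 genes was followed, of which 53 were tested. It held genes that crosslink, organise, bind or degrade elastic fibres. Protease inhibitors and secretory and metabolic genes of cutis laxa, which do not act on the fibres in these ways, were also in it. The list was chosen with earlier results of these data known, and it includes Lox and Dcn, which the study names as changed. The shares below are therefore descriptive and no test of the list. Between col1-ACLP and col1, 7 of the 53 rose and 2 fell, or 17%, beside the 4.97% called over all genes. With SB431542 against col1, 4 rose and 1 fell (9.43%), beside 2.28% of all genes. Between col1-ACLP+SB and col1-ACLP no gene of the list was called by edgeR, DESeq2 or limma-voom, beside 0.128% of all genes in edgeR, with 23 of the 53 (43.4%) at an unadjusted p under 0.05 in edgeR, beside 12.8% of all genes. On the adjusted p alone, 1 was higher and 5 lower (11.3%), beside 1.48% of all genes. Mfap2 (MAGP-1), a microfibril glycoprotein, depended on the fit. Its log2 fold change in edgeR was -1.35 on col1-ACLP (adjusted p = 0.0651) and -1.33 on col1-ACLP+SB (adjusted p = 0.106), while DESeq2 called it lower in both comparisons and edgeR without col1 replicate 2 in the first. The median log2 fold change of the list against col1 was 0.03 on col1-ACLP.

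Of 6 crosslinking genes, Lox and Loxl4 rose. Lox, the lysyl oxidase that joins elastin and collagen chains, averaged 703 ± 22.2 CPM without ACLP, 2092 ± 168 CPM with ACLP and 1520 ± 62.0 CPM with ACLP and the inhibitor (SD, n = 4). Its log2 fold change was 1.57 ± 0.0481 (SE, adjusted p = 1.17e-17) without and 1.11 ± 0.0475 (adjusted p = 1.56e-14) with the inhibitor, and the difference between these was -0.46 (adjusted p = 5.49e-06). Loxl4 had log2 fold changes of 1.32 and 0.98. Loxl1, the family member tied most closely to elastin, was lower by log2 fold changes of -0.37 in both comparisons (adjusted p = 3.32e-05 and 6.46e-05), under the fold threshold. Members of the enzyme family therefore lay on both sides of 0.

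Among regulators of microfibrils, Adamtsl2, which binds fibrillin and latent TGF-beta binding protein, had a log2 fold change of 1.13 (adjusted p = 0.0138) at a level of 1.14 CPM on col1, and Adamtsl4 one of 0.63 (adjusted p = 2.05e-06). Adamtsl3 had the smallest adjusted p of this role on col1-ACLP (log2 fold change 0.48, adjusted p = 6.78e-08), under the fold threshold. Timp3, a matrix-bound inhibitor of metalloproteinases, rose by 0.96 on the log2 scale (adjusted p = 8.4e-13), and was lower with the inhibitor than without it by -0.43 (adjusted p = 7.13e-05). Pycr1 and Aldh18a1, enzymes of proline synthesis that cause cutis laxa when mutated, rose by 1.19 and 0.68 on the log2 scale. Dcn and Mgp, the proteoglycan decorin and the calcification inhibitor matrix Gla protein, were the 2 that fell, with log2 fold changes of -1.65 (adjusted p = 3.65e-13) and -0.94 (adjusted p = 5.45e-08). With SB431542, Adamtsl2 (1.21), Pycr1 (0.91) and Dcn (-1.35) passed both thresholds against col1.

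The latent TGF-beta binding proteins, receptors and proteases of the list gave no call against col1 in edgeR. The smallest adjusted p in each of these roles on col1-ACLP belonged to Ltbp1 (log2 fold change -0.22, adjusted p = 0.0101), to the integrin subunit Itgb3 (0.54, adjusted p = 1.06e-06) and to the membrane metalloproteinase Mmp14 (-0.49, adjusted p = 4.14e-09). The remaining genes with an adjusted p under 0.05 between col1-ACLP+SB and col1-ACLP were Loxl4 (-0.35), Vcan (-0.23), Adamtsl3 (-0.22) and Adamtsl5 (0.34), beside Lox and Timp3.

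**Figure D5:**
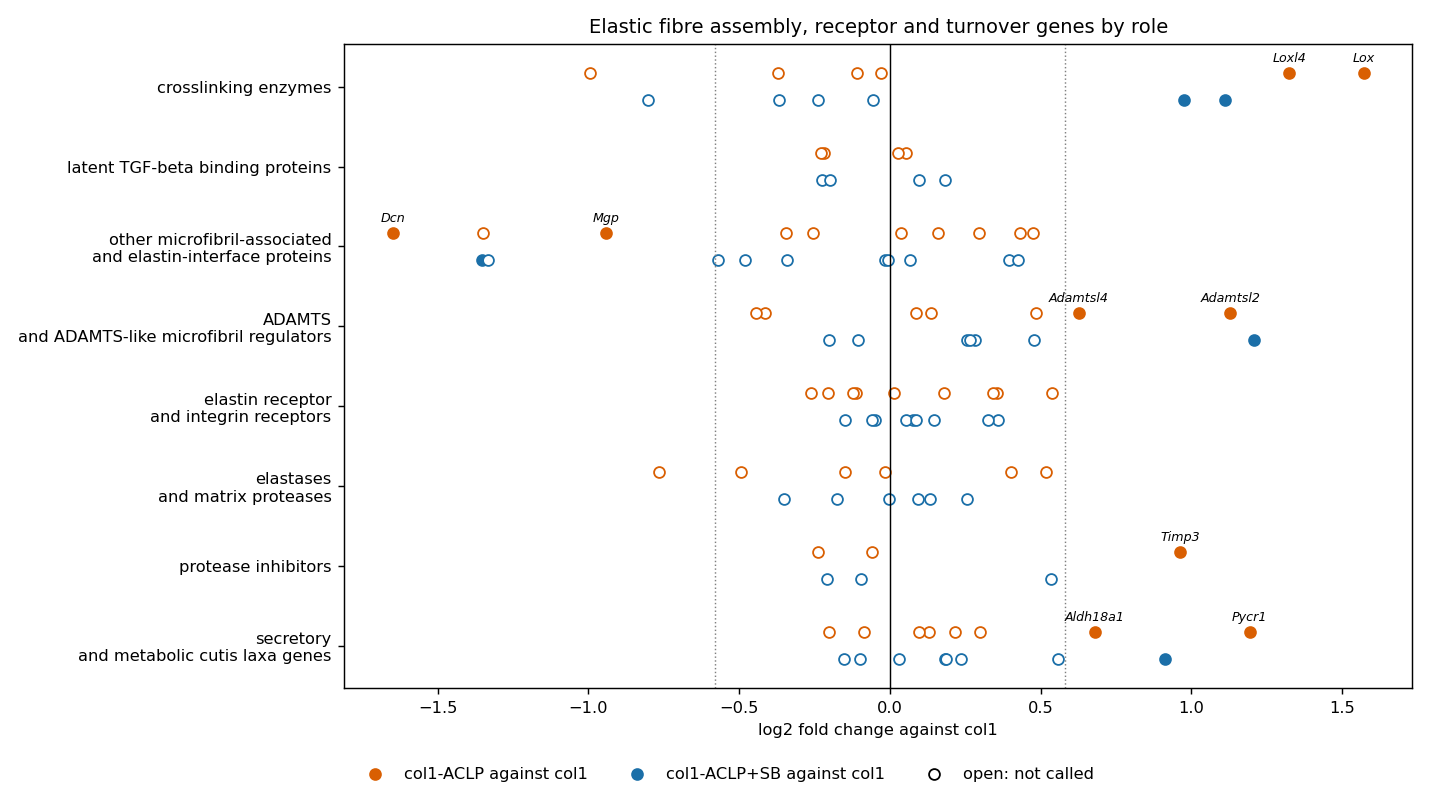
log2 fold change against col1 (x axis) of the 53 tested genes of the wider list, by role (y axis), for col1-ACLP and col1-ACLP+SB, filled where called, with dotted lines at 0.58 in each direction. Lox and Loxl4 lie farthest to the right and Dcn farthest to the left in the col1-ACLP comparison, and receptors and latent TGF-beta binding proteins lie within the dotted lines.

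The genes whose pattern over the 12 libraries was most like that of a member were found by Pearson's r of log2 CPM among genes of at least 10 CPM. For Fbn1 these were Slc7a1, Eif3c and Col5a1, each with r = 0.989, for Eln Srebf1 (0.94) and Plekha3 (0.939), and for Efemp1 Rnd2 (0.943), Evc (0.919) and Adamts14 (0.917). The libraries share their group differences, so these values describe likeness of pattern only. Col5a1, a chain of fibrillar collagen, had log2 fold changes of 0.925 without and 0.62 with the inhibitor.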

How the data were processed

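Poly(A) RNA of 12 libraries, 4 per group, was sequenced, and the authors mapped the reads with HISAT2 and deposited raw counts per gene, without normalization, together with gene lengths. The labels name mm10 and the methods of the study GRCm39, and the table was read as GRCm39, since 68.6% of its gene identifiers found in the GENCODE annotation of that build had the same start there. The gene models of the table differ from that annotation in part, including those of Fbln5, Efemp1 and Mfap5. The counting tool, its strand setting and its treatment of shared bases are not given in the sources used here.

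Counts were filtered with filterByExpr, scaled by TMM and fitted over all 12 libraries with group as the only term in edgeR 4.0.16 (R 4.3.3), using the quasi-likelihood test and Benjamini-Hochberg adjustment over 16465 genes. A gene was called at an adjusted p under 0.05 and a log2 fold change beyond 0.58. Intervals are 95%. CPM and FPKM use the TMM-scaled library size and the deposited gene lengths. Replicates had a common dispersion of 0.153 as its square root. No replicate pair agreed within counting noise (chi-square per degree of freedom 7.22 to 19.5), so none was treated as a single library deposited 2 times. The study calls the libraries of a group biological replicates. Counts carry no molecular identifiers, so counting limits cover counting error only.

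The members and lists were chosen with earlier results of these data known. Named were all 10 members, every gene of the wider list called in any comparison and the gene with the smallest adjusted p in each role, and the 3 genes most like Eln, Fbn1 and Efemp1, of which 1 is not reported here. Values for Loxl1, Mfap2, Vcan and Adamtsl5 were added after they were seen. Alternatives were RLE size factors, library size alone, no filter, a mean of at least 10 counts, fits of 2 groups, a replicate block, DESeq2 1.42.0, limma-voom (limma 3.58.1), the adjusted p alone, and each library left out. On simulated counts with known changes, 96.7% (col1-ACLP against col1) to 100% (col1-ACLP+SB against col1) of genes changed by 1 on the log2 scale and at 5 CPM or more were recovered. Over all genes changed by that size, whatever their level, the share was 56.6% and 61.3% in these comparisons. Efemp1, Mfap4 and Fbln1 lie under 5 CPM. RT-qPCR and primary cells were not analysed here.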

Additional observations from a re-analysis of the deposited data

Results flagged for a closer look

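In 30 checks for a library far from the other 3 of its group, over 10 genes and 3 groups, 2 stood apart, and chance alone sets apart about 1 in 20 such groups. Efemp1 in col1 replicate 1 had 1.02 CPM against 1.51 to 1.60 CPM in the other col1 libraries, and that library was still above every library with ACLP. Fbln1 in col1-ACLP+SB replicate 1 had 0.285 CPM (10 counts) against 0.0671 to 0.0992 CPM (2 to 4 counts) in the others of its group. The cause was not tested for either.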

How the results depend on the processing

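Of the log2 fold changes of the members, 577 values under alternatives kept their side of the call rule (adjusted p and fold together), 20 lost it and 0 turned a called direction. All 20 losses were of Mfap4, Efemp1 or Eln, and Fbn1 and Fbln5 kept theirs under each alternative run against col1. With 1 library left out, 4 to 5 members were called for col1-ACLP against col1, 1 to 4 for col1-ACLP+SB against col1 and 0 to 0 for col1-ACLP+SB against col1-ACLP. In the second comparison the count was 1 without col1-ACLP+SB replicate 2, and 2 without col1 replicate 1, 3 or 4 or col1-ACLP+SB replicate 3. On the adjusted p alone, 2 members (Fbn1 and Fbln5) passed between col1-ACLP+SB and col1-ACLP. Without col1-ACLP+SB replicate 4, Fbln5 did not (adjusted p = 0.0599). With no filter on low counts and with limma-voom, Mfap4 was lost for col1-ACLP+SB against col1 (adjusted p = 0.0523 and 0.0503), at log2 fold changes of 1.415 and 1.42. For col1-ACLP against col1, limma-voom lost it (adjusted p = 0.11) at 1.143. The cause was not tested.

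Same-numbered libraries did not deviate together (correlations of -0.0372 to 0.036), and the numbers were not treated as pairs. With a replicate block, 4, 3 and 0 members were called in the 3 comparisons, in the order above. Mfap4 was the gene lost (adjusted p = 0.0575 and 0.051), at log2 fold changes of 1.286 and 1.445.

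By the length of the canonical transcript, an alternative chosen after seeing the data, Fbln2 made up 61.7% of the summed level on col1 and 51.3% on col1-ACLP, Fbln5 16.7% and 24.1%, and Fbn1 12.4% and 17.0%. Efemp1, Mfap4 and Fbln1, with at most 110 counts in a library, are limited by depth.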
